A study of Mus musculus with 8 samples.

Results

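Of the mature forms of the muscle miRNAs miR-1, miR-133 and miR-206 on the array, 7 were followed in mouse plasma. These were miR-1a-3p, miR-1a-1-5p, miR-1a-2-5p, miR-133a-3p, miR-133a-5p, miR-133b-3p and miR-206-3p. The array also holds miR-1b-3p, miR-1b-5p, miR-133b-5p, miR-133c and miR-206-5p, which are given further below with other muscle miRNAs. The 7 forms are among 1881 mouse miRNAs on the array and were picked by name. The rule for this uses no measured value but was written with earlier results of these data known. Plasma came from female NMRI mice, an outbred strain, aged 3 months, and each array measured the RNA of a 3-mouse pool of plasma, 300 µl in volume. In the imatinib group (IMB, 3 pools) the mice were given the tyrosine kinase inhibitor orally every day, 100 mg/kg for 9 days. In the doxorubicin group (DOX, 3 pools) the anthracycline was injected intravenously every other day, 4 times at 3 mg/kg. Control mice (CTRL, 2 pools) received the solvents only. A pool hides the spread between its mice, so 1 mouse with a high level and 3 mice with a moderate one cannot be told apart here.

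A miRNA guides an Argonaute protein to messenger RNAs that pair with its seed, the short stretch near its 5′ end. In skeletal and heart muscle, miR-1 and miR-133 are made together from shared primary transcripts under the control of muscle transcription factors such as MEF2 and SRF, and miR-206 and miR-133b form a similar pair in skeletal muscle. They act in the growth and differentiation of muscle cells, and their levels in blood are used as markers of muscle injury; doxorubicin is known for its toxicity to the heart, and imatinib has been discussed as a possible cardiotoxic agent.

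The sequences below show the seeds that set which messenger RNAs these forms pair with. Capitals mark the seed, bases 2 to 8, in the RefSeq mature sequences of the build GRCm38.p6, which lists 3 of the 7 forms.
mmu-miR-206-3p: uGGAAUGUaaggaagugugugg
mmu-miR-133b-3p: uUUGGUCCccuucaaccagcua
mmu-miR-1a-1-5p: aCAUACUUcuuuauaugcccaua
The first lies in Mir206 at chr1:20679055-20679076 on the plus strand, and the second in the neighbouring Mir133b at chr1:20682834-20682855 on the plus strand. The third lies in Mir1a-1 at chr2:180389057-180389079 on the plus strand and is the opposite arm of a hairpin that also gives miR-1a-3p. As background, miR-1a-3p carries the miR-206-3p seed, and miR-133a-3p carries the miR-133b-3p seed. Because miR-133a-3p and miR-133b-3p are almost identical over their whole length, their probes may bind both, and how the signal is divided between them is uncertain.

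Each form was read by 2 probes, or 3 for miR-1a-1-5p and miR-1a-2-5p, each printed as 10 to 15 spots. Signals are background-subtracted intensities as the scanner software gave them, and scaled signals are the same values after the arrays were brought to 1 common 75th percentile. A form was called detected on an array where over 50% of its spots, for at least 1 probe, were well above background. The array percentiles behind the scaling were 196, 425 and 320 in IMB pools 1, 2 and 3, 213, 249 and 267 in the DOX pools, and 299.8 and 349 in the CTRL pools, so IMB pool 2 was the brightest array. All arrays lay on 1 slide, no spot was saturated, and the log2 signals of every pair of arrays correlated between 0.953 and 0.991 over the tested miRNAs. Precision is limited by having 8 arrays.

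Plasma miR-1a-3p, the mature form that acts in muscle differentiation, was higher in each of the 6 drug pools than in either control pool, by amounts that differed widely between pools of the same drug. Its brighter probe read 130, 1271 and 65.5 in IMB pools 1, 2 and 3, 160, 47.1 and 51.2 in DOX pools 1, 2 and 3, and 28.9 and 27.2 in the CTRL pools. IMB pool 2 stood far above all others, DOX pool 1 and IMB pool 1 came next, and the IMB and DOX groups overlapped. After scaling, the same probe was 7.64, 34.5 and 2.36 times the CTRL mean in the IMB pools, and 8.66, 2.19 and 2.21 times in the DOX pools. It was well above background on all 8 arrays, and its replicate spots on an array varied by a CV of 5.03% to 18.5%. Averaged over pools on the log2 scale, it was 8.54-fold the CTRL level in IMB plasma and 3.47-fold in DOX plasma. Single pools moved these means: the IMB value was 4.25-fold without IMB pool 2 and 16.2-fold without IMB pool 3, and the DOX value was 2.20-fold without DOX pool 1.

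The dimmer miR-1a-3p probe was close to background in several pools. Its scaled signal was 44.4, 188 and 13.5 in the IMB pools, 46.9, 11.9 and 11.6 in the DOX pools, and 5.23 and 3.63 in the CTRL pools. It was detected in IMB pools 1 and 2 and in DOX pool 1, and in no other pool. The CTRL level is therefore only a bound, taken on each array as the higher of the probe's own signal and the lowest signal of any probe well above background. Against that bound the probe was 3.05-fold higher in IMB than in CTRL plasma, or 1.54-fold without IMB pool 2. Both values take the undetected signal of IMB pool 3 as measured, so they are not strict lower limits. For DOX against CTRL the value was 1.17-fold and rested on DOX pool 1, without which no fold can be given.

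The brighter probes of miR-133a-3p and miR-133b-3p also read higher in each drug pool than in either control pool, with IMB pool 2 on top. For miR-133a-3p this is a description only, as its CTRL signals were at the edge of detection. For miR-133b-3p, the form encoded next to miR-206, the brighter probe read 138, 956 and 73.5 in the IMB pools, 140, 72.8 and 120 in the DOX pools, and 47.1 and 56.7 in the CTRL pools. Lowest among the drug pools were IMB pool 3 and DOX pool 2, closest to the controls. After scaling, these signals were 4.42, 14.1 and 1.44 times the CTRL mean in the IMB pools and 4.12, 1.83 and 2.82 times in the DOX pools. The mean difference was 4.47-fold for IMB against CTRL, 2.52-fold without IMB pool 2 and 7.88-fold without IMB pool 3. It was 2.77-fold for DOX against CTRL. Its dimmer probe was not well above background in CTRL plasma. Against the same kind of bound it was 2.92-fold higher in IMB plasma (1.68-fold without IMB pool 2, at least 5.24-fold without IMB pool 3). In DOX plasma it was 1.88-fold higher. The probe was not detected in IMB pool 3 or DOX pool 2 either, and means with those pools take its signal there as measured.

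For miR-133a-3p, which represses SRF among other targets, the brighter probe read 73.2, 515 and 33.6 in the IMB pools, 78.2, 32.1 and 47.3 in the DOX pools, and 18.7 and 21.4 in the CTRL pools. Both control signals were at the edge of detection, with 3 of 14 spots well above background in CTRL pool 1 and 13 of 15 in CTRL pool 2. The form was thus detected in 7 of the 8 pools and passed the filter on dim miRNAs through the drug groups. After scaling, it was 6.05, 19.6 and 1.70 times the CTRL mean in the IMB pools and 5.95, 2.09 and 2.87 times in the DOX pools. The mean differences were 5.86-fold for IMB against CTRL, 3.20-fold without IMB pool 2 and 10.9-fold without IMB pool 3, and 3.29-fold for DOX against CTRL. Its dimmer probe was detected in IMB pool 2 alone, so no fold is given for it.

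**Figure D1:**
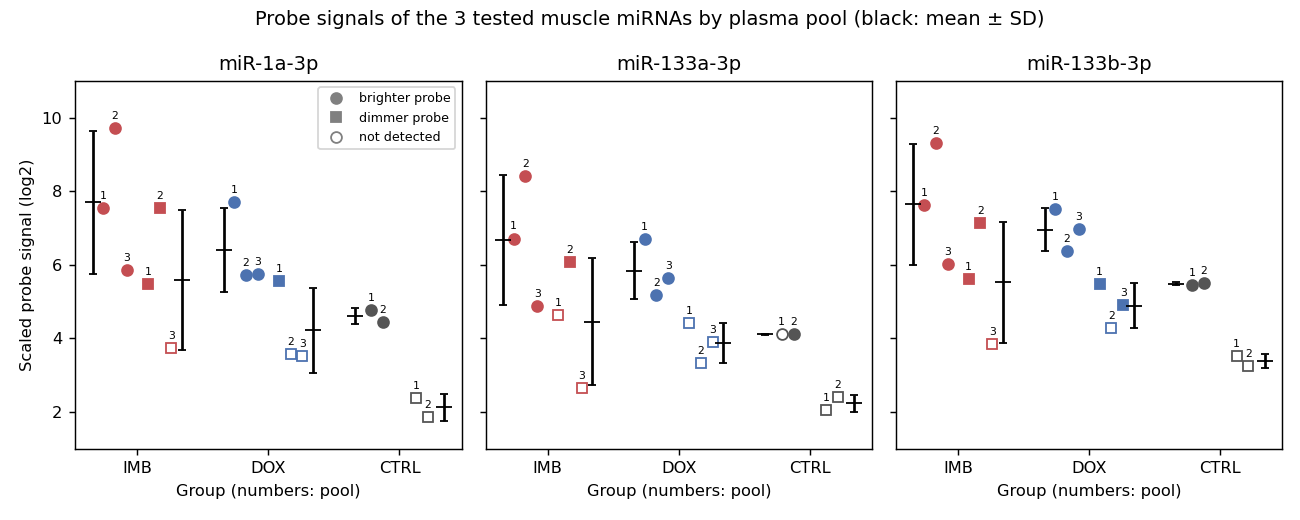
Scaled probe signal (log2) of both probes of miR-1a-3p, miR-133a-3p and miR-133b-3p in each plasma pool, with 1 panel per miRNA and pools numbered within IMB, DOX and CTRL. Each drug pool lies above both control pools, IMB pool 2 is the highest, and the IMB and DOX groups overlap. The dimmer probes were detected in no control pool and in only some drug pools. The CTRL signals of miR-133a-3p were at the edge of detection on its brighter probe.

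In the test across all miRNAs, none of these differences passed the threshold of an adjusted p of 0.05. The test used the log2 of the mean of a miRNA's probes, with values under a floor of 4.39 set to it, in limma with Benjamini-Hochberg adjustment over 294 miRNAs. On this scale miR-1a-3p had log2 signals of 6.85, 9.01 and 5.15 (IMB pools 1, 2 and 3) and 7.01, 5.03 and 5.04 (DOX pools 1, 2 and 3), and stood at the floor in both CTRL pools, although its brighter probe was above background there. For IMB against CTRL the difference was 2.62 with a standard error of 1.22, a 95% interval from -0.43 to 5.66 and an adjusted p of 0.74 by limma. Without IMB pool 2 this difference was 1.61, and without IMB pool 3 it was 3.54. The floor sets both CTRL values of miR-1a-3p, so the size and its interval depend on the floor. With a floor 4 times lower the difference was 3.16, and with a floor 2 times higher it was 1.69.

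For miR-133b-3p the log2 values were 6.95, 8.59 and 5.30 in the IMB pools, 6.85, 5.67 and 6.29 in the DOX pools, and 4.80 and 4.79 in the CTRL pools. No value of this form was at the floor. Its IMB against CTRL difference was 2.16 with a standard error of 0.95, a 95% interval from -0.22 to 4.53 and an adjusted p of 0.68 by limma. For miR-133a-3p the values were 6.03, 7.67 and 4.39 in the IMB pools, 5.97, 4.54 and 5.02 in the DOX pools, and 4.39 in both CTRL pools, so IMB pool 3 tied with the controls at the floor. The IMB against CTRL difference of 1.64 had a standard error of 0.98 and an adjusted p of 0.76 by limma. Without IMB pool 2 the differences were 1.33 for miR-133b-3p and 0.82 for miR-133a-3p, and without IMB pool 3 they were 2.98 and 2.46.

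Of the 7 forms, 3 could be tested, and 0 of 3 passed for IMB against CTRL, where 1.02% of all tested miRNAs did. At an unadjusted p of 0.05 the count by limma was also 0 of 3, against 7.82% of all tested miRNAs in either direction. That count depended on the processing: over 30 settings, the main one included, it was 3 of 3 in 7 and 0 in 21. The 7 included the scanner software's signal per miRNA, the authors' deposited table, a floor 4 times lower and the brighter probe alone. The others left out IMB pool 3 or joined the brighter probe with a lower floor, a choice made after seeing the data. The adjusted p stayed above 0.05 in each. The share of all tested miRNAs under an unadjusted p of 0.05 is given for the main setting only. Without that share beside it, the count of 3 of 3 is no result about these forms. On the log2 scale of the test, all 3 IMB pools lay above both CTRL pools for miR-1a-3p and miR-133b-3p, and 10.9% of all tested miRNAs were separated that way. No such count is given for miR-133a-3p, which entered the test through the drug groups.

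For DOX against CTRL, the limma differences were 1.30 for miR-1a-3p (standard error 1.22, adjusted p 0.91), 0.79 for miR-133a-3p (0.98, adjusted p 0.95) and 1.48 for miR-133b-3p (0.95, adjusted p 0.78). Of the 3 forms, 0 passed, where 0.34% of all tested miRNAs did, and 0 passed at an unadjusted p of 0.05, where 8.5% did. The unadjusted count was 0 in 28 of 30 settings, the main one included, and 3 of 3 in 1 of them. That setting, the brighter probe with a lower floor and without IMB pool 2, was chosen after seeing the data. No share over all tested miRNAs is given for it, so its 3 of 3 is no result about these forms. Without DOX pool 1 the differences were 0.64, 0.39 and 1.19 for miR-1a-3p, miR-133a-3p and miR-133b-3p. All 3 DOX pools lay above both CTRL pools for miR-1a-3p and miR-133b-3p, and 18.7% of all tested miRNAs were separated that way. The imatinib and doxorubicin comparisons share the 2 control pools, so they are not independent.

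Between the drugs, at their own doses, routes and schedules, 0 of the 3 forms passed, where 1.02% of all tested miRNAs did, and 0 passed at an unadjusted p of 0.05, where 10.9% did. The IMB minus DOX difference was 1.31 for miR-1a-3p (95% interval -1.41 to 4.04, adjusted p 0.74), 0.85 for miR-133a-3p (-1.33 to 3.04, adjusted p 0.80) and 0.68 for miR-133b-3p (-1.44 to 2.80, adjusted p 0.87), all by limma. The IMB pools lay above all DOX pools for 0 of the 3 forms, against 6.8% of all tested miRNAs, and the intervals leave room for a difference of several-fold in either direction. Without IMB pool 2, the miR-133b-3p difference was -0.14. The red cell index, miR-451a minus miR-23a-3p on the log2 scale, was 3.91, 4.45 and 3.90 in the IMB pools, 3.15, 2.68 and 2.73 in the DOX pools, and 3.84 and 3.18 in the CTRL pools. Between IMB pools 1 and 2, miR-451a was nearly equal at 15.12 and 15.14, while miR-23a-3p was 11.21 and 10.68. In IMB pool 3 they were 14.81 and 10.91, so against that pool both parts of the index differed. IMB pool 2 had the highest miR-451a and the lowest miR-23a-3p of the 8 pools. The index was higher in each IMB pool than in any DOX pool. With it as a covariate, the IMB minus DOX differences turned to -2.48, -1.99 and -1.97 for miR-1a-3p, miR-133a-3p and miR-133b-3p. The same covariate gave 0.85, 0.32 and 0.92 for IMB minus CTRL, and 3.33, 2.31 and 2.89 for DOX minus CTRL. No adjusted p passed with it, and what part red cell RNA had in the values was not tested.

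**Figure D2:**
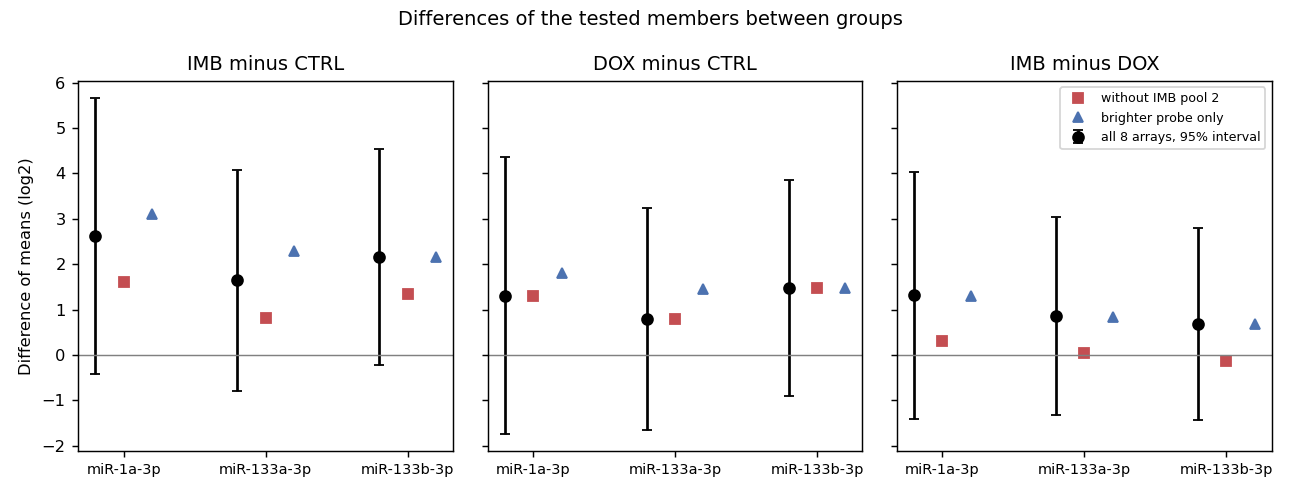
Difference in log2 scaled signal between groups for miR-1a-3p, miR-133a-3p and miR-133b-3p, with a panel per comparison: circles with bars give the limma estimate and 95% interval on all 8 arrays, squares the estimate without IMB pool 2, and triangles that from the brighter probe alone. Every interval includes 0, and the squares lie below the circles for IMB minus CTRL and IMB minus DOX.

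An exact two-sided permutation test of each form alone gave p = 0.2 for miR-1a-3p, 0.4 for miR-133a-3p and 0.2 for miR-133b-3p for IMB against CTRL. The corresponding exact permutation p-values for DOX against CTRL were 0.3, 0.2 and 0.2. With 3 pools against 2, the smallest p such a test can give is 0.1, so it could not pass the threshold. With detection counts and the software's total signal included, 48 such tests were run, 32 of them on 3 pools against 2, and after Benjamini-Hochberg adjustment every exact permutation p was 1. Within row 1 of the slide, which held IMB pool 1, DOX pools 1 and 2 and CTRL pool 1, the IMB minus CTRL differences were 2.46, 1.64 and 2.15 for miR-1a-3p, miR-133a-3p and miR-133b-3p. In row 2, with IMB pools 2 and 3, DOX pool 3 and CTRL pool 2, they were 2.69, 1.64 and 2.16. The DOX minus CTRL differences were 1.63, 0.86 and 1.46 in row 1 and 0.65, 0.63 and 1.50 in row 2.

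The level of these forms varied widely between pools of the same drug. Over the IMB pools the SD of the log2 signal was 1.93 for miR-1a-3p, 1.65 for miR-133b-3p and 1.64 for miR-133a-3p, the 3 largest of 294 tested miRNAs, whose median was 0.226. Over the DOX pools it was 1.14 for miR-1a-3p, the largest, 0.73 for miR-133a-3p, ranked 2, and 0.59 for miR-133b-3p, ranked 4, where the median was 0.158. IMB pool 2 exceeded the mean of the other IMB pools by 3.01, 2.47 and 2.46 on the log2 scale for miR-1a-3p, miR-133a-3p and miR-133b-3p. The next miRNA in that order was miR-378a-3p, at 0.85, and the median over all tested miRNAs was -0.016. Scaling to a common percentile removes most of any shared shift, so this median cannot show how many miRNAs rose together in IMB pool 2. Before scaling, its 75th percentile was 425, against 196 and 320 in IMB pools 1 and 3. These ranks describe the 8 arrays and carry no test.

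**Figure D3:**
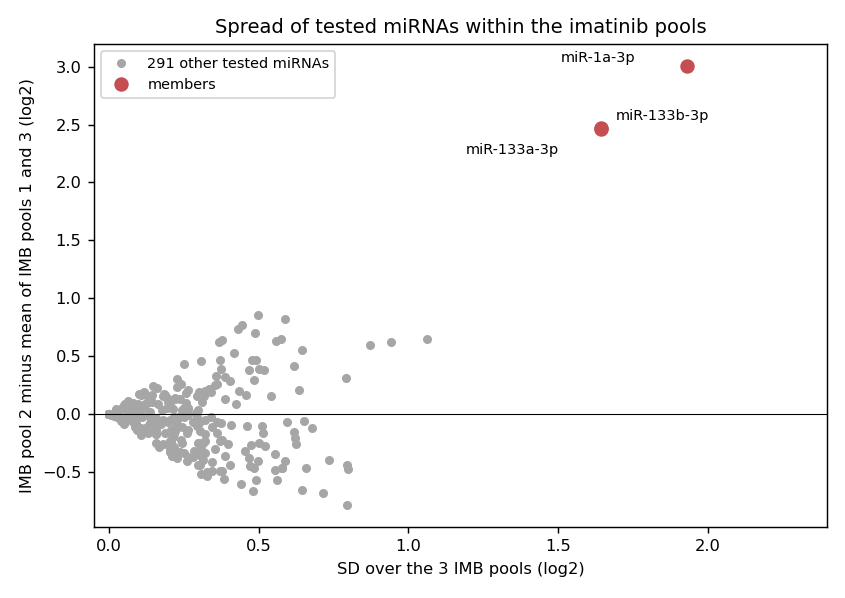
Each point is 1 of the 294 tested miRNAs, placed by its SD over the IMB pools and by how far IMB pool 2 exceeds the mean of the other IMB pools, both in log2 units. The points of miR-1a-3p, miR-133a-3p and miR-133b-3p lie apart from the rest, the last of them nearly on top of each other.

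The 4 other forms were at or near background. For miR-206-3p, the skeletal muscle miRNA that shares the miR-1 seed, the brighter probe read 20.0 in IMB pool 2, with 7 of 15 spots well above background, and its dimmer probe 15.7, with 2 of 15. On the other 7 arrays its probes read 3.28 to 8.61, and 0 of 207 spots were well above background. The total gene signal of the scanner software was 9.69 in IMB pool 2 and 0.1, its lowest value, in all other pools. IMB pool 2 was also the brightest array: after scaling, the brighter probe was 13.2 in IMB pool 2 and 10.6 in IMB pool 1, with 9.29 in DOX pool 1 and 9.10 in DOX pool 3. By the share of spots the form was detected in no pool. Whether its probes also bind miR-1a-3p, whose brighter probe read 1271 in IMB pool 2, was not tested.

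The opposite arms gave less. For miR-133a-5p, 1 probe read 14.5 in IMB pool 2, with 2 of 15 spots well above background, and 0 of 205 spots were above it on the other arrays, where signals ran from -1.56 to 2.92. For miR-1a-1-5p the probe signals ran from -0.36 to 4.47, and for miR-1a-2-5p from -0.996 to 2.63, with no spot well above background on any array. Their levels in IMB, DOX and CTRL plasma therefore could not be compared. By the scanner software's own call, 3, 5 and 3 of the 7 forms were detected in the IMB pools, 3 in each DOX pool and 3 in each CTRL pool. By the share of spots it was 3 in each drug pool, and 2 and 3 in the CTRL pools, and the mean difference of 0.5 forms between each drug and CTRL had an exact permutation p of 0.4. Of all 1881 mouse miRNAs, the share of spots called 266, 339 and 304 detected in IMB pools 1, 2 and 3. It called 258, 279 and 271 in the DOX pools, and 297 and 327 in the CTRL pools. IMB pool 2 thus had the most detected miRNAs of any array. The software's own count over all miRNAs is not given here.

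**Figure D4:**
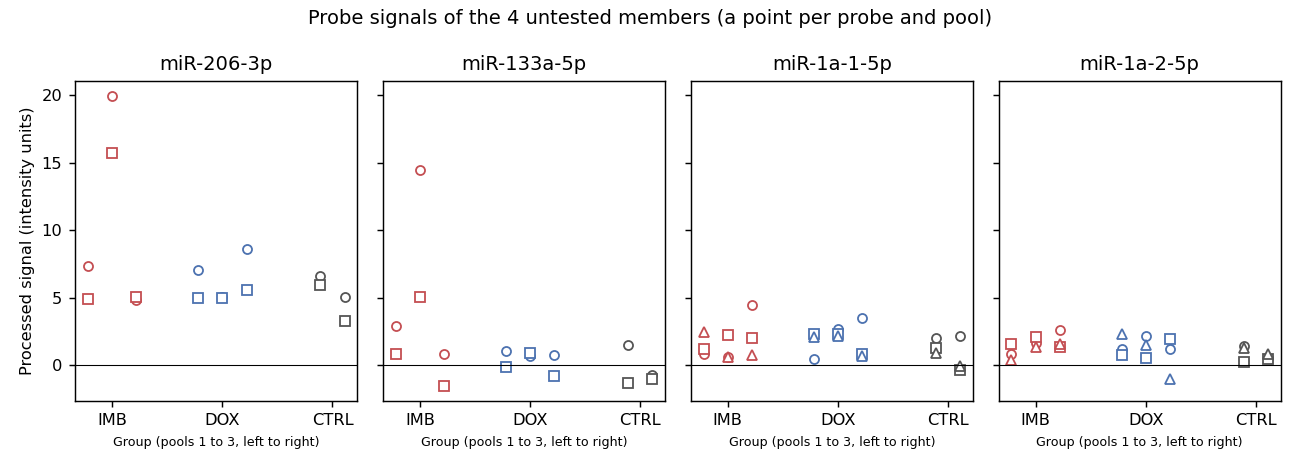
Probe signal, background-subtracted and unscaled, of miR-206-3p, miR-133a-5p, miR-1a-1-5p and miR-1a-2-5p in each plasma pool. Only IMB pool 2 has spots well above background, for miR-206-3p and miR-133a-5p.

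Of 11 further miRNAs listed as belonging to striated muscle, 10 showed no spot well above background among 2346 spots, with signals from -5.15 to 4.25. These include the heart myosin gene miRNAs miR-208a-3p and miR-499-5p, miR-208b, miR-1b, miR-133c and the opposite arms of miR-206 and miR-133b. The exception was miR-208a-5p, the opposite arm of a heart miRNA, whose log2 signal was 8.38, 8.63 and 8.80 in the IMB pools, 9.58, 9.11 and 9.15 in the DOX pools, and 9.18 and 9.31 in the CTRL pools. It did not place IMB pool 2 apart, and its IMB minus CTRL difference of -0.64 had an adjusted p of 0.30 by limma. Its 3p arm was at background on every array. As a marker of both muscle and red cells, miR-486a-5p was 10.59, 10.51 and 9.86 in the IMB pools, 9.96, 9.26 and 8.86 in the DOX pools, and 10.36 and 9.57 in the CTRL pools. For it the IMB and CTRL groups overlapped.

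Markers of other sources of plasma miRNA were set beside these values. The summed scaled signal of the red cell list was 31664 to 39996 over the IMB pools, 17855 to 26878 over the DOX pools and 22469 to 37384 over the CTRL pools. This sum is mostly miR-451a, whose log2 signal was 15.12, 15.14 and 14.81 in the IMB pools. The next of these markers, miR-16-5p, was at 11.30, 11.14 and 10.79 there. In that list miR-144-3p rose in IMB plasma by 0.82 against CTRL (adjusted p 0.0077 by limma), 1 of 4 markers tested, and IMB pool 2 had the highest value for 1 of 5, miR-451a. The liver list summed to 1146 to 3156 over the IMB pools, 1893 to 2607 over the DOX pools and 1295 to 1571 over the CTRL pools. Its main marker, miR-122-5p, was 11.22, 10.88 and 9.24 in the IMB pools on the log2 scale, so pools 1 and 2 exceeded pool 3 as they did for the muscle forms, but pool 2 was not the highest. The myeloid and platelet list summed to 1770 to 2401 over the IMB pools, 2607 to 2838 over the DOX pools and 2144 to 2523 over the CTRL pools. The smooth muscle and mesenchyme list summed to 87.4 to 194 over the IMB pools, 141 to 163 over the DOX pools and 147.6 to 168 over the CTRL pools. None of the tested markers of the liver, myeloid or smooth muscle lists passed in either drug comparison with CTRL. Whether these sources had a part in the muscle signal was not tested. A plasma level also cannot tell more cells releasing a miRNA from more miRNA released per cell.

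By their profile over the 8 pools, the 3 forms were nearest to each other. Measured as the root mean square difference of log2 signals centred on each miRNA's mean, miR-133b-3p and miR-133a-3p each lay 0.48 from miR-1a-3p, and 0.29 from each other. This distance also depends on the size of the swings, and these 3 forms had the largest SDs over the IMB pools. The probes of miR-133a-3p and miR-133b-3p may also bind both forms. The next nearest miRNAs to miR-1a-3p were miR-5100 at 1.06, miR-7058-5p and miR-6354 at 1.20, miR-378a-3p at 1.21 and the liver miRNA miR-122-5p at 1.22, against a median of 1.52 over all tested miRNAs. miR-7058-5p was 6.81, 7.23 and 7.18 in the IMB pools, 5.50, 6.16 and 5.80 in the DOX pools, and 4.83 and 4.52 in the CTRL pools, and rose in IMB plasma by 2.39 with an adjusted p of 0.0077 by limma. Its IMB pools lay close together, while those of miR-1a-3p were spread over several log2 units.

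**Figure D5:**
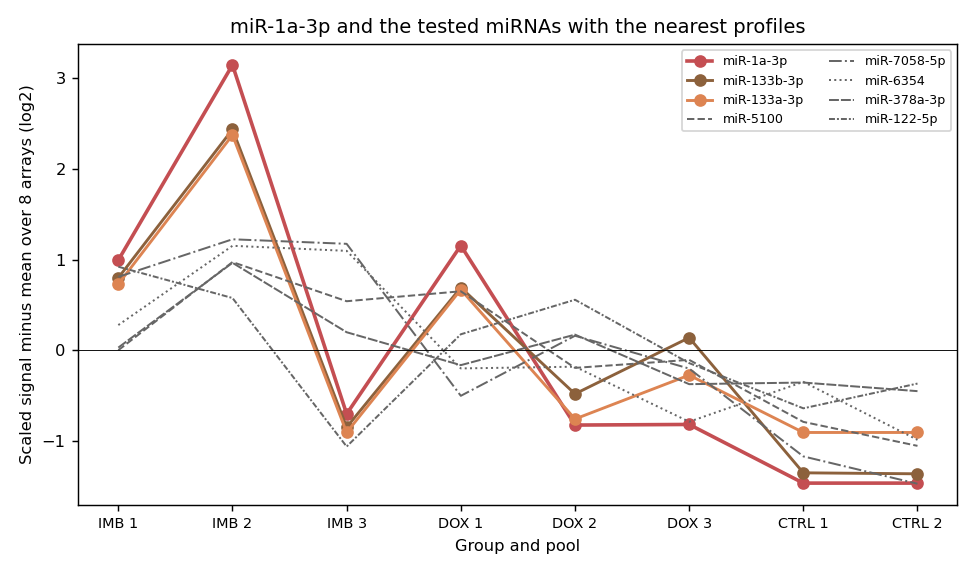
Log2 scaled signal of miR-1a-3p, miR-133a-3p, miR-133b-3p and of the 5 other tested miRNAs nearest to miR-1a-3p over the 8 pools, each centred on its own mean. The 3 muscle forms share a peak at IMB pool 2, which the 5 other miRNAs do not follow to the same extent. The muscle forms have a smaller rise at IMB pool 1 and DOX pool 1. Rises of similar size to those of the miR-133 forms are seen for miR-122-5p at IMB pool 1 and miR-5100 at DOX pool 1.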

How the data were processed

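Plasma RNA of 8 pools (3.1 µl each, labelled with Cy3) was read on 1-colour Agilent miRNA arrays. The deposited scanner files hold intensity values that, per the submitters' processing notes, come from Agilent Feature Extraction 11.5.1.1, of which the background-subtracted processed signal was used. The authors' deposited table of log2 values served as an alternative; the steps behind it are not given in the sources used here. Control spots and flagged outlier spots were left out of 58594 spots per array, spots of a probe were averaged, and arrays were scaled to the 75th percentile over 454 probes detected on all arrays. The mean over a miRNA's probes was floored at 20.9 and taken to log2. Of 1881 mouse miRNAs, the 294 that some group showed as detected in all its pools entered a limma (3.58.1, R 4.3.3) fit over all 8 arrays, with Benjamini-Hochberg adjustment and a threshold of 0.05. The fit was tested on simulated data. The labels do not say what the shared replicate numbers mean, and the main fit did not pair the pools by them. Correlations of same-numbered deviations ran from -0.24 to 0.40, and so few pools cannot show whether the numbers pair them. Named miRNAs are the 7 forms, the listed muscle and marker miRNAs, and the 5 nearest to miR-1a-3p. The members and lists were chosen with earlier results of these data known. Alternatives covered scaling, background correction, floor, filter, probe summary, fit, blocks and leaving out each pool.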

Additional observations from a re-analysis of the deposited data

Results flagged for a closer look

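In IMB pool 2, signal appeared for forms that entered no comparison between groups and were at the software's lowest value in all other pools, control pools included. The total gene signal of miR-206-3p was 9.69 in IMB pool 2 and 0.1 in the other IMB pools, the DOX pools and the CTRL pools. That of miR-133a-5p was 3.93 in IMB pool 2 and 0.1 in the other pools. The value 0.1 is the lowest the software gives, so these numbers are no fold, and IMB pool 2 was the brightest array. After scaling, the mean of the miR-206-3p probes was 11.8 in IMB pool 2 and 8.84 in IMB pool 1, and by the share of spots neither form was detected in any pool. IMB pool 2 was the highest for miR-1a-3p, miR-133a-3p and miR-133b-3p. Whether the miR-206-3p probes also bind miR-1a-3p, which carries the same seed, was not tested.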

How the results depend on the processing

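In none of the 29 alternatives did miR-1a-3p, miR-133a-3p or miR-133b-3p pass the threshold (miR-133a-3p could be tested in 28), and the lowest adjusted p for IMB against CTRL was 0.19, 0.21 and 0.26. Directions against CTRL held, but sizes did not: IMB minus CTRL ran from 0.85 to 3.64, 0.32 to 3.13 and 0.92 to 2.98, and DOX minus CTRL from 0.54 to 3.33, 0.19 to 2.34 and 0.78 to 2.89. The lowest IMB values and the highest or near-highest DOX values came with a red cell covariate; normexp background gave 1.38, 0.79 and 1.26 for IMB minus CTRL, a floor 2 times higher 1.69, 0.98 and 1.59, and the authors' deposited table gave 3.64, 3.13 and 2.24. For IMB minus DOX, that covariate, the red cell index, gave -2.48, -1.99 and -1.97 for these forms; the brightest probe with a lower floor and without IMB replicate 2, chosen after seeing the data, gave -0.039 for miR-133a-3p and -0.14 for miR-133b-3p. The cause was not tested. Leaving out each pool in turn gave 1.61 to 3.54, 0.82 to 2.46 and 1.33 to 2.98 for IMB minus CTRL, 0.64 to 1.64, 0.39 to 1.11 and 1.19 to 1.78 for DOX minus CTRL, and 0.31 to 2.24, 0.03 to 1.68 and -0.14 to 1.50 for IMB minus DOX. With the replicate number as a block, the IMB minus CTRL differences were 3.24, 2.09 and 2.56 with adjusted p of 0.47, 0.63 and 0.54 by limma, and the calls over all miRNAs were 2, 0 and 4 against 3, 1 and 3 for the comparisons in that order; not every pool correlated best with its own number. Over all settings these calls ran from 0 to 12, 0 to 2 and 0 to 20, with 12 and 20 reached without IMB replicate 1. The difference in detected forms against CTRL was 0 to 1 when a pool was left out; by the software's call it was 0 for DOX against CTRL and 0.667 for IMB against DOX. The median over all miRNAs shifted by over 0.1 with no scaling (-0.32 for DOX minus CTRL, 0.23 for IMB minus DOX), with normexp background (0.11 for DOX minus CTRL) and with miR-24-3p and miR-23a-3p as the scaling standard (0.19 for IMB minus CTRL, 0.30 for IMB minus DOX). In CTRL plasma, signals near background limit miR-133a-3p, the floored test value of miR-1a-3p and the dimmer probes of the tested forms. They also limit the 4 forms not tested.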
